A study of Mus musculus with 54 samples.

Results

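B cells were defined in the mouse kidney cell libraries as barcodes with unique molecular identifiers (UMIs, counted transcripts) of at least 2 of the 4 genes Cd79a, Cd79b, Ms4a1 and Ly6d and 0 UMIs of the T-cell gene Cd3e, the macrophage gene C1qa and the endothelial gene Pecam1. This rule found 1182 of the 77656 barcodes in the 27 cell libraries (1.52%, 95% Wilson interval 1.44 to 1.61%), and these 1182 are called the members. They were thus chosen by their UMI counts, and the levels of the 7 genes of the rule are given as a description with no test. B cells carry an antigen receptor made of an immunoglobulin heavy chain, usually IgM and IgD in naive cells, and a kappa or a lambda light chain. Cd79a and Cd79b pass the receptor's signal into the cell, Ms4a1 (CD20) is a surface protein of mature B cells, and Ly6d marks the B lineage but also occurs in other cells. In the kidney B cells are a small population of circulating and resident lymphocytes.

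The study compared ways to dissociate and store mouse kidney for single-cell RNA sequencing. Kidneys of male AFAPIL.1DEL C57BL/6J mice aged 19 weeks, from 1 litter and with no earlier procedures, were dissociated on ice with a cold-active bacterial protease (cold) or with a commercial enzyme kit at 37 °C (warm). Each suspension was profiled fresh, after cryopreservation in a DMSO medium for 6 weeks (cryo) or after methanol fixation and storage for 3 months (methanol), which gave 6 groups. Cryopreserved cells, cold ones included, were thawed at 37 °C for 2 to 3 min and washed before loading. Untreated male Balb/c mice aged 18 weeks gave a cold fresh group, and untreated wild type female Balb/c mice aged 15 weeks, former breeders, gave cold fresh libraries and cold libraries cryopreserved for 2 weeks. The C57BL/6J and male Balb/c libraries used version 2 of the 10x chemistry and the female ones version 3, and each of the 9 groups held 3 libraries in biological triplicate. C57BL/6J and male Balb/c libraries share sex and chemistry, but they were made at different times, and strain, age, the AFAPIL.1DEL genotype and the time of the experiment cannot be told apart between them. Comparisons with the female set also cross sex and chemistry. Nucleus libraries of the Balb/c sets, used for the shares alone, came from flash-frozen whole kidneys. Their nuclei were sorted in the preparations 3x500g (both sexes) and 1x2000g (female) or cleaned over sucrose (female).

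Library totals ran from 983522 to 27869324 UMIs and members per library from 0 to 157. In 21 libraries there were at least 10 members. Gene levels were tested in 19 of them, 17 of C57BL/6J and 2 of male Balb/c mice, since the female cryo libraries had no fresh library of that size to be set against. The study kept a gene in a library only where enough of its cells held it, and a gene left out in 1 library but kept in another of the same table is listed there at 0 in every barcode. Such a gene is called not counted in that library, and its 0 is taken as no measurement, an inference from the study's methods and the values. Under that filter few cells of the library held the gene. Leaving such libraries out can thus raise the shares and levels given for a gene. In the C57BL/6J libraries 482 to 6101 of the 13114 to 13392 listed genes were not counted. The third warm methanol replicate counted Cd79a alone of the 4 rule genes, so that no barcode of it could meet the rule. The third male Balb/c replicate, with 3 members, and the first and the second female fresh libraries did not count Ms4a1, and the female fresh libraries held 2, 8 and 2 members. Ly6d was missing from the second and the third female cryo libraries, and Ms4a1 from the third. Across the 351 pairs of libraries the number of shared barcodes had a median of 4 and a maximum of 51, and 2 member barcodes occurred in more than 1 library. A simulated-pair check marked 25 members as possible doublets, and they were kept.

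The members carried genes of the B lineage that the rule had not used. Igkc, the kappa constant chain, had a UMI in 94.8% of members, against 2.24% of 1248 T-cell barcodes and 2.30% of 26002 proximal tubule barcodes. The first cold methanol library held 236 of the 598 tubule barcodes with Igkc and 4 of the 28 T-cell barcodes, 33.4% of its 707 and 20% of its 20. Without it the shares were 1.43% of 25295 tubule and 1.95% of 1228 T-cell barcodes. Both sets were chosen without UMIs of Cd79a, Cd79b and Ms4a1. Low shares of B-cell genes in them, here and in later paragraphs, are thus in part set by these rules. The median UMI count was 1348 in the T-cell barcodes and between 341 (male Balb/c) and 3723 (female fresh) in the members, as a mean of library medians. Cd74, the invariant chain of MHC class II, was found in 99.3% of members and 19.6% of T-cell barcodes. H2-Aa, an MHC class II chain, was found in 92.2% and 7.29%. Ebf1, a transcription factor that sets the B lineage, was found in 66.5% and 0.641%. Lower shares of members held UMIs of Cd37 (43.1%), Fcmr, the IgM Fc receptor (38.9%), Cd22 (13.1%) and Pax5 (12.6%). In T-cell barcodes the shares of Cd22 (0 of 553) and Pax5 (0 of 474) were lower still, whereas Cd37 (23.5%), a leukocyte gene, was common there. The shares of a gene are over the libraries that counted it, 8 each for Cd22 and Pax5.

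Genes with a UMI in at least 10% of members were ranked by the ratio of mean CPM in members over all other barcodes. CPM are UMIs of a gene scaled to 1000000 UMIs of the summed barcodes. The 20 leading genes outside the rule included immunoglobulin genes, receptor genes and the antigen-presentation gene H2-DMb2, beside genes of other kinds. Iglc2, a lambda constant chain, averaged 2288 CPM in members and 13.8 in the other barcodes, a ratio of 166. Without the 1 member that held most of its UMIs in the second warm fresh library it averaged 2037 CPM, a ratio of 148. Igkc averaged 10698 against 79.6 CPM, a ratio of 134. The ratios of Fcmr (133), Ighd (123), the adaptor Bank1 (117), Iglc3 (110), Fcrla (94.6), the inhibitory lectin Siglecg (85.1) and the chaperone Mzb1 (79.7) came next. Iglc1 (49.0), the peptide-loading regulator H2-DMb2 (45.4), Ighm (41.2), Gm8369 (36.4), Cd55 (27.1), Cd37 (27.0), the lymphotoxin gene Ltb (26.7), Scd1 (24.1), the transcription factor Bcl11a (22.9) and Cd2 (21.6) were also among the 20. Each of those named was higher in members than in the other barcodes in every library that counted it, which was 21 of 21 for Igkc, Iglc2, Fcmr, Iglc3, Ighm, H2-DMb2, Gm8369, Cd37, Ltb and Cd2 and between 13 and 20 for the other 9. As the genes were picked by this ratio in the same libraries, their direction there is not independent evidence. They describe the members and were not tested.

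Members with few rule genes also carried Igkc. There were 363 members with 2 rule genes, 459 with 3 and 360 with 4, and Igkc had a UMI in 92.8%, 95% and 96.4% of them. Ighm rose through the same classes from 66.1% over 78.4% to 90.8%, beside median depths of 908, 1032 and 1208.5 UMIs. Just outside the rule, 974 barcodes had 1 rule gene, of which 22.6% had Igkc and 53.6% Cd74, at a median of 2006 UMIs. In 131 further barcodes at least 2 rule genes came with a UMI of Cd3e, C1qa or Pecam1, and 96.2% of these had Igkc. Of 57 marker genes of other immune cells and of endothelium outside the rule, 54 were counted in at least 1 library, and 52 of these had a UMI in under 5% of members. The other 2 were Plac8, of the monocyte and neutrophil list, in 28.1% of members, 10.9% of T-cell and 6.42% of tubule barcodes, and Bst2, of the plasmacytoid dendritic list, in 5.41%, 12.7% and 2.62%. The T-cell genes Cd3d, Trac and Trbc2 had UMIs in 1, 4 and 5 members of the 24 to 26 libraries that counted them, Nkg7 of natural killer cells in 1, C1qb of macrophages in 29, Emcn of endothelium in 14, and Siglech of plasmacytoid dendritic cells in 1 of the 91 members of the 6 libraries that counted it. That member, 1 of the 2 of the first female fresh library, met the rule through Cd79b (1 UMI) and Ly6d (5) and had 9 UMIs of Siglech, 11 of Cox6a2, 17 of Bst2, 16 of Tcf4 and 26 of Irf8, with 9 of Ighm and 0 of Igkc, Iglc1, Iglc2 and Iglc3. Cox6a2 had a UMI in 3 other members, 1 in the third cold fresh and 2 in the first cold methanol C57BL/6J library, where Siglech was not counted. The cold fresh one had 4 UMIs of Bst2, 6 of Tcf4, 3 of Irf8, 0 of Igkc and 1 of Iglc3, and met the rule through Cd79b (1) and Ly6d (6). Of the cold methanol ones, 1 had 10 of Bst2, 11 of Irf8, 8 of Igkc and 11 of Iglc3, with Cd79b (1) and Ly6d (20). The other had 0 of Bst2 and Irf8 and 17 of Igkc. C1qb was found in 2.45% of members, 2.40% of T-cell barcodes and 2.68% of proximal tubule barcodes. All 3 sets were chosen with 0 UMIs of C1qa and Pecam1, and the members and the tubule set also with 0 of Cd3e. Low shares of macrophage, endothelial and T-cell markers are thus in part set by these rules. Lyz2, a lysozyme gene of myeloid cells, was found in 43 of 1182 members (3.64%), 2.88% of T-cell and 2.83% of tubule barcodes. A single member held 98 of its UMIs in the second cold methanol library (97.0%), another 46 of 77 in the second cold cryo library and another 38 of 42 in the second warm cryo library. Hemoglobin RNA was common. Hbb-bs had a UMI in 45.9% of the 1030 members of the libraries that counted it, 40.7% of T-cell and 61.4% of tubule barcodes.

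The rule genes themselves were not found equally in all groups. Cd79b was found in 88.3% of cold fresh and 70.1% of warm fresh members, in 81.6% and 49.7% after cryopreservation, and in 83.0% and 65.4% after methanol. Members with 2 rule genes made up 19.6% of the cold fresh group, 22.4% of warm fresh, 21.9% of cold cryo, 51.6% of warm cryo, 30.2% of cold methanol and 48.1% of warm methanol. As the rule rests on these genes they are given with no test.

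Most members had UMIs of an IgM or IgD heavy chain. Ighm, of IgM, was found in 78.4% of all 1182 members, and Ighd, of IgD, in 38.0% of 1122. In T-cell barcodes the shares were 14% and 0.263%, and Ighm was found in 0.515% of tubule barcodes. The part of background in the members with Ighm was not tested. Of the 1122 members in libraries that counted Ighm and Ighd, 31.6% had UMIs of both, 48.1% of Ighm without Ighd, 6.42% of Ighd without Ighm and 13.9% of neither. In the 1 male Balb/c library that counted both, 17 of 37 members (45.9%) had neither, at a mean of library medians of 341 UMIs in that group. The follicular B-cell markers Fcer2a (CD23) and Cr2 (CD21) were found in 26.4% of 950 and 7.81% of 730 members, and in 0 of 846 and 0.766% of 783 T-cell barcodes. Vpreb3, a surrogate light-chain family gene, was found in 20.7% of 1004 members, while Cd93 of immature B cells was found in 2 of 1163. Mki67 and Top2a of cycling cells were counted in 7 libraries each and found in 1 and 2 members. Of plasma cell genes, Jchain was counted in 4 libraries and had 0 UMIs in their 152 members, which allows up to 1.97% of members of these libraries to hold a UMI and sets no limit on cells that express it. Sdc1 was found in 12 of 1101 members and Prdm1 in 2 of 924. Mzb1, which plasma cells and marginal zone B cells also express, was found in 27.8%.

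A single member of the second warm fresh replicate held nearly all IgA heavy-chain RNA of its library. It had 7392 UMIs in all and held 450 of the 452 Igha UMIs of that library's members. It also held 735 of the 866 Iglc2 UMIs, 53 of the 81 Mzb1 UMIs and 0 of the 205 Ighm UMIs. The Iglc2 level of that library was 6273 CPM with this member and 1003 CPM without it. Igha was found in 12 of the 519 members in the 8 libraries that counted it (2.31%), in 1.64% of their T-cell barcodes and in 1.59% of their proximal tubule barcodes.

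Light chains were detected in a mixed way. A B cell as a rule makes a kappa or a lambda chain, yet 1018 members (86.1%, Wilson interval 84.0 to 88.0%) had UMIs both of Igkc and of at least 1 of Iglc1, Iglc2 and Iglc3. Kappa without lambda was found in 102 members (8.63%), lambda without kappa in 48 (4.06%), and neither in 14. Iglc1 was not counted in 6 of the 26 cell libraries with members, and with lambda read from Iglc2 and Iglc3 alone 1003 members (84.9%) had both and 117 (9.9%) kappa without lambda. With at least 2 UMIs asked of each chain, 835 members (70.6%) still had both. In T-cell barcodes 0.0801% and in proximal tubule barcodes 0.0577% had both chains, in sets chosen without UMIs of Cd79a, Cd79b and Ms4a1. Among the 1110 members with at least 5 light-chain UMIs, 203 had at least 90% kappa, 48 at least 90% lambda and 859 (77.4%) a mixture. The share of mixtures was 84.6% in cold cryo, 57% in warm cryo, 78.2% in cold fresh and 67.3% in warm fresh members, pooled over libraries. Median light-chain UMIs were 16, 10.5, 15 and 19 in the same order. Iglc1 was not counted in the first warm cryo nor in the first and the third warm fresh library. The part of depth and of Iglc1 in these shares was not tested. Intervals cover counting error and treat members as independent.

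The constant regions of the 4 light-chain genes are shown because Iglc2 and Iglc3 are near-identical in coding sequence. The last 120 coding bases are given 5′ to 3′ from the GRCm38 transcripts of the GENCODE annotation, and capitals mark bases that differ from Iglc2 (Igkc, which aligns poorly, has none marked).
Igkc: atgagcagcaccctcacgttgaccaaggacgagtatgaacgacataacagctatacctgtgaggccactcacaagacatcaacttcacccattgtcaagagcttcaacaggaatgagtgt
Iglc1: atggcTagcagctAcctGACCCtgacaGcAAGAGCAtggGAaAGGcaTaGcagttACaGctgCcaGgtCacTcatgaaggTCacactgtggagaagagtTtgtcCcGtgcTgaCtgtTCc
Iglc2: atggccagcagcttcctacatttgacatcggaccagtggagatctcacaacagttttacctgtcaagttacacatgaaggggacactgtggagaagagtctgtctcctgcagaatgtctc
Iglc3: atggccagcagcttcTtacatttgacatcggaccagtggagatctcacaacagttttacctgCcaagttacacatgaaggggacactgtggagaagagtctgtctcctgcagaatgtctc
The stretches lie at chr6:70726635-70726754 (plus strand, Igkc), chr16:19061755-19061874 (Iglc1), chr16:19198539-19198658 (Iglc2) and chr16:19065368-19065487 (Iglc3), the last 3 on the minus strand and all within coding sequence. Iglc3 differs from Iglc2 at 2 of the 120 bases and Iglc1 at 38. Over the aligned coding sequence Iglc2 and Iglc3 were 96.2% identical, Iglc1 and Iglc2 73.8%, and Igkc and Iglc2 55.9%. Over the last 150 bases of the transcripts, where a 3′ library reads, Iglc2 and Iglc3 were 87.7% identical and Iglc1 and Iglc2 54.4%. No read mapping was examined, so the split of reads between Iglc2 and Iglc3 is uncertain.

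The mean share of kappa-only members was higher in the warm than in the cold libraries of each storage form, where no test of these sizes can pass 0.05. Among fresh libraries they were 6 of 25, 8 of 67 and 3 of 15 members in the warm and 0 of 41, 8 of 115 and 7 of 74 in the cold replicates, 18.6 ± 6.14% against 5.47 ± 4.9% (SD, n = 3 each, exact permutation p = 0.1, two-sided, the smallest p that 3 against 3 allows). After cryopreservation they were 8 of 29, 8 of 64 and 22 of 68 warm against 2 of 108, 4 of 157 and 1 of 77 cold members. The means were 24.1 ± 10.4% and 1.90 ± 0.626% (SD, n = 3 each, exact permutation p = 0.1). After methanol they were 3 of 19 and 2 of 33 warm against 2 of 38, 3 of 79 and 1 of 42 cold members. The means were 10.9 ± 6.88% (n = 2) and 3.81 ± 1.44% (n = 3, exact permutation p = 0.1, the smallest possible). On this count every warm library lay above every cold one in its storage form. With 2 UMIs asked of a chain the fresh groups overlapped, at 9 of 25, 17 of 67 and 2 of 15 warm against 1 of 41, 21 of 115 and 19 of 74 cold members (exact permutation p = 0.5). With at least 3 rule genes asked they overlapped as well, at 5 of 21, 5 of 48 and 3 of 14 against 0 of 37, 7 of 94 and 6 of 54 (exact permutation p = 0.2). The cryo and the methanol groups did not overlap in either case. Iglc1 was not counted in the first warm replicate of each form nor in the third warm fresh one. With lambda read from Iglc2 and Iglc3 alone the fresh groups overlapped, at 18.6 ± 6.14% warm and 6.95 ± 6.27% cold (exact permutation p = 0.2). The cryo groups, at 26.2 ± 6.90% and 2.42 ± 0.992%, and the methanol groups, at 14 ± 2.59% and 3.81 ± 1.44%, did not (exact permutation p = 0.1 each). With lambda-only members the p-values of all 8 comparisons were 0.4 or more, and these 16 tests were made without adjustment because none can pass 0.05. The kappa-only tests and the reading without Iglc1 were added after the data had been seen.

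**Figure D1:**
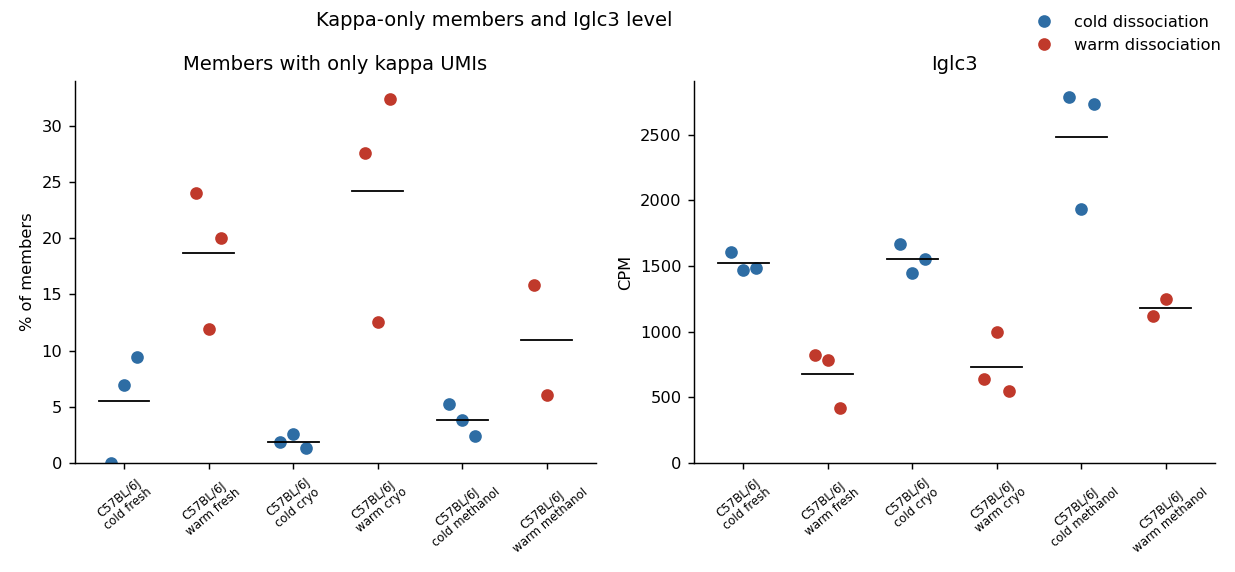
Left, members with kappa but no lambda UMIs (Iglc1, Iglc2 and Iglc3), in percent of a library's members. Right, the level of Iglc3 in member sums, in CPM. Each point is 1 C57BL/6J library with at least 10 members, bars are group means, blue is cold and red is warm dissociation. Warm libraries lie above cold ones on the left and below them on the right, within each storage form. Iglc3 UMIs of the same members enter both panels, so the panels are not independent.

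Iglc3 was lower in warm libraries in all 3 storage forms, and it was the 1 gene called lower in all 3. Its UMIs also enter the kappa-only shares, so those shares and the Iglc3 level are not independent results. In the fresh libraries Iglc3 stood at 825, 782 and 416 CPM in the warm and 1610.5, 1467 and 1483 in the cold replicates. The log2 fold change, warm over cold, was -1.19 ± 0.24 (SE, adjusted p = 0.0152 by edgeR's quasi-likelihood test). After cryopreservation it was -1.04 ± 0.21 (adjusted p = 0.00353) and after methanol -1.18 ± 0.25 (adjusted p = 0.00431). The direction was kept without any 1 library. The call was lost in fresh libraries without the second (adjusted p = 0.0788) or the third cold replicate (0.0687), after cryopreservation without the third warm one (0.0516) and after methanol without either warm one (0.105 and 0.164). Igkc stood at 12053, 7686 and 8292 CPM in warm and 11650.0, 13533 and 8134 in cold fresh libraries, which overlap (log2 -0.33 ± 0.22, adjusted p = 0.570). In the second cold fresh replicate 1 member of 4321 UMIs held 767 of the 2067 Igkc UMIs, and without it the level was 8759 CPM. The same member held 18 of the 60 UMIs of Mzb1, a gene of plasma cells and marginal zone B cells. Iglc2 was 1000.3, 6273 and 960.5 CPM warm and 1494, 1624 and 1469 cold (log2 0.90 ± 0.61, adjusted p = 0.570). Without the second warm replicate its log2 fold change turned to -0.76. After cryopreservation Iglc2 was lower in the warm libraries, at 996, 1558 and 1336 against 2094, 2244 and 2418 CPM (log2 -0.73 ± 0.17, adjusted p = 0.0106). Member medians were 1625 ± 184 UMIs warm and 1260.2 ± 340.3 cold in fresh libraries, 949 ± 142 and 1059 ± 118 in cryo and 845 ± 50.9 and 912 ± 132 in methanol libraries, and the part of depth in these differences was not tested.

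Iglc1 was counted in 2 or more libraries of every C57BL/6J group but the warm fresh and warm methanol ones. In the warm libraries that counted it, it stood at 420.1 CPM fresh, 736 and 402 cryo and 1803 methanol. The cold replicates stood at 1740.3, 1257 and 945 CPM fresh, 798, 495 and 554 cryo and 1824, 1429 and 441 methanol. In the first cold fresh replicate 84 of 134 Iglc1 UMIs came from 1 member, and without it the level was 661 in place of 1740 CPM. In some libraries its UMIs were more spread, and the member with most held 17.7% of them in the second cold fresh replicate, 10.6% in the first cold cryo one and 11.6% in the second, where 36, 35 and 43 members had a UMI. With 1 counting library in the warm fresh group, no warm against cold difference of Iglc1 is given for fresh libraries.

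Members were a smaller share of all barcodes after warm dissociation in fresh and in cryopreserved libraries. The rule gene Cd79b was found in fewer warm than cold members, at 70.1% against 88.3% fresh and 49.7% against 81.6% cryo. Ms4a1 went the other way in fresh members, at 70.1% against 54.8%. The part of rule-gene detection in these shares was not tested. Among fresh C57BL/6J libraries the replicates held 1.04, 1.12 and 0.522% members after warm and 1.74, 2.82 and 1.37% after cold dissociation. The means were 0.893 ± 0.324% and 1.97 ± 0.752% (SD, n = 3 each, exact permutation p = 0.1, two-sided, the smallest possible). Proximal tubule barcodes are those with enough tubule marker genes detected, and in fresh libraries they were fewer than in the study's own annotation. Over barcodes outside this set the fresh groups overlapped, at 1.94, 2.35 and 0.952% warm against 3.01, 4.66 and 2.24% cold (exact permutation p = 0.2). Thinned to 1000 UMIs per barcode they overlapped too, at 23 of 1390, 60 of 4053 and 12 of 1672 barcodes warm against 40 of 1395, 85 of 2944 and 30 of 3323 cold (exact permutation p = 0.3). The cryo groups did not overlap in either case. After cryopreservation the shares were 2.31, 6.40 and 5.54% warm against 12.0, 9.64 and 7.75% cold (means 4.75 ± 2.16% and 9.81 ± 2.15%, exact permutation p = 0.1). After methanol they overlapped, at 0.769 ± 0.684% warm and 1.51 ± 0.613% cold (exact permutation p = 0.3). The third warm methanol replicate enters as 0, as it counted too few rule genes to hold members. Without it the warm share was 1.15% (n = 2) against 1.51% (exact permutation p = 0.5). Counted per T-cell barcode the warm and cold fresh libraries overlapped, at 0.902 ± 0.444 members per T-cell barcode in warm and 1.33 ± 0.504 in cold fresh libraries (exact permutation p = 0.4). After cryopreservation they were 0.822 ± 0.304 warm and 1.47 ± 0.343 cold (exact permutation p = 0.2).

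Within each dissociation form of the C57BL/6J set and within the female Balb/c set, cryopreserved libraries held the largest shares of members. The cold libraries went from 1.97 ± 0.752% fresh to 9.81 ± 2.15% cryo and the warm ones from 0.893 ± 0.324% to 4.75 ± 2.16%. In female Balb/c mice the shares were 0.0434, 0.101 and 0.0453% fresh and 1.36, 1.04 and 0.589% cryo. All 3 contrasts had libraries that did not overlap (exact permutation p = 0.1 each). Without the member with Siglech UMIs, a choice made after seeing the data, the first female fresh share was 0.0217%, with the same exact permutation p. With Cd79a and Cd79b alone, the rule genes that all 6 female libraries counted, the shares were 0.974% cryo and 0.056% fresh (exact permutation p = 0.1). In the C57BL/6J libraries the number of proximal tubule barcodes was 995, 1615 and 2107 cold fresh but 0, 0 and 4 cold cryo, so the shares have another denominator. T-cell barcodes rose as a share too, from 1.57% to 6.69% in cold libraries. Members per T-cell barcode were 1.47 ± 0.343 in cold cryo and 1.33 ± 0.504 in cold fresh libraries (exact permutation p = 0.6). In female Balb/c mice they were 0.355 ± 0.138 against 0.0764 ± 0.0388, with no overlap (exact permutation p = 0.1).

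The shares of methanol-fixed and fresh libraries overlapped. The cold shares were 1.51 ± 0.613% methanol and 1.97 ± 0.752% fresh (difference -0.463 percentage points, exact permutation p = 0.5), and the warm ones 0.769 ± 0.684% and 0.893 ± 0.324% (exact permutation p = 0.8, and 1.15% against 0.893% with p = 0.6 without the third warm methanol replicate). Male Balb/c cold fresh libraries held 1.50, 1.13 and 0.0839% members, a mean of 0.903 ± 0.734% against the C57BL/6J mean of 1.97 ± 0.752% (exact permutation p = 0.2, and 0.823% against 1.91% with p = 0.2 by the 3 rule genes that all 6 counted). Thinned to 500 UMIs per barcode these groups did not overlap. Members were then 6 of 1363, 3 of 2110 and 1 of 549 male Balb/c barcodes against 39 of 2016, 88 of 3925 and 58 of 5170 C57BL/6J ones. Thinning left out 1104, 999 and 3028 male Balb/c barcodes and 340, 159 and 241 C57BL/6J ones. In the 12 nucleus libraries, 16 of 98303 barcodes passed the same rule (0.0163%, Wilson interval 0.0100 to 0.0264%), and 8 of the 16 had Ighm. In male Balb/c mice sorted 3x500g nuclei of frozen kidneys gave 0.0126 ± 0.0132% and fresh cells 0.903 ± 0.734% (n = 3 each, exact permutation p = 0.1). In female mice nuclei of the same 3x500g preparation gave 0.00437 ± 0.00757% and fresh cells 0.0632 ± 0.0327% (exact permutation p = 0.1). The 3 female nucleus libraries of this preparation counted neither Cd79a nor Ms4a1. The female nuclei of the other preparations gave 0.0111, 0.0364 and 0.0329% after a single spin and 0.0125, 0.0215 and 0.0265% over sucrose. Nucleus counts include intronic reads and cell counts do not, and the nucleus libraries counted between 2 and 4 of the rule genes. The 11 share comparisons are left unadjusted, as none can pass 0.05.

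**Figure D2:**
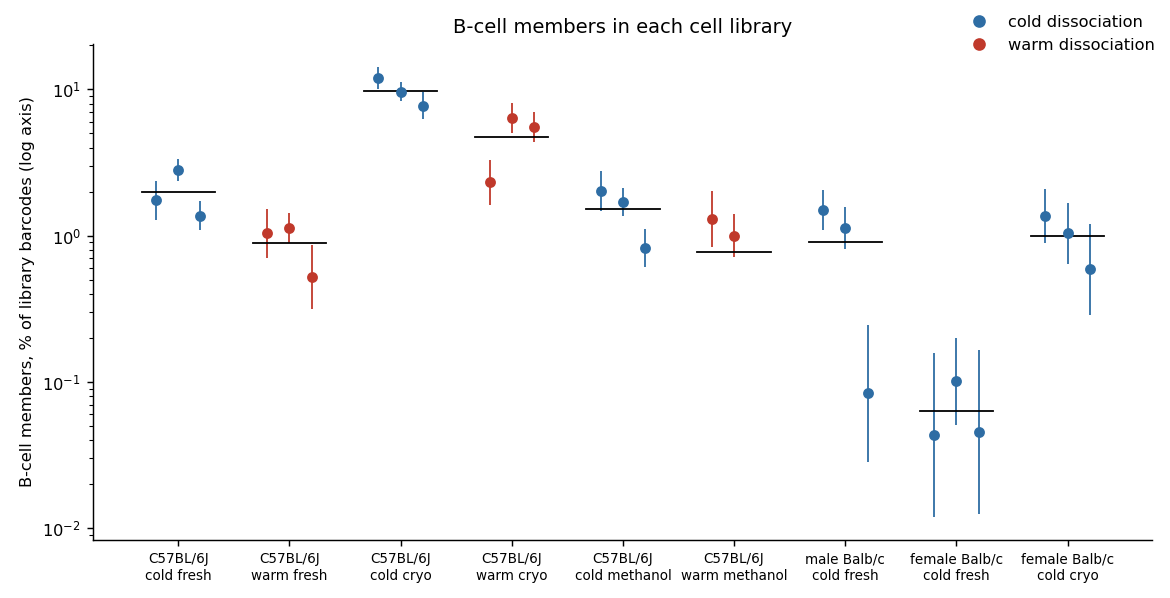
Share of barcodes that are members in each of the 27 cell libraries, in percent on a log axis, with 95% Wilson intervals. Bars are group means, and blue is cold and red is warm dissociation. The third warm methanol library, which counted 1 rule gene, has no point and enters its group mean as 0. C57BL/6J cold cryo libraries lie highest (7.75 to 12.0%). Female Balb/c fresh libraries (0.0434 to 0.101%) have the lowest group mean, and the third male Balb/c library (0.0839%) lies within their range.

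Warm dissociation of fresh kidney was marked in B cells by immediate-early, activation and heat-shock genes. Of 787 genes tested on UMIs summed over the members of each library, 35 were higher (4.45%) and 9 lower (1.14%) in warm libraries at an adjusted p under 0.05. With genes not counted in a library left out 32 and 9 were called, all 41 among the 44. Fos, which encodes a subunit of the transcription factor AP-1, stood at 1725, 1029 and 1121 CPM in the warm and 6.55 and 13.1 in the second and the third cold replicates, and the first did not count it. With 2 UMIs in the members of these cold libraries the ratio was 126 (34.5 to 1046) by an exact 95% counting interval (adjusted p = 0.000435 in the fit without the first cold library). Its partner Jun stood at 1750.5, 739 and 608 against 13, 6.55 and 13.1 CPM, a ratio of 90.2 (30.4 to 441) (adjusted p = 0.000128). Junb was 5827, 2572 and 2529 CPM warm and 169, 98.2 and 52.5 cold (log2 fold change 5.00 ± 0.40, SE, adjusted p = 7.66e-05). Jund, a member of the family with a high resting level, was 4701, 2796 and 3938 against 584, 707 and 419.8 CPM (log2 2.63 ± 0.24, adjusted p = 0.000128). Fosb was 450.1, 348 and 512 CPM in the warm libraries and is listed at 0 in every barcode of the cold ones, so no fold is given. The groups did not overlap for any of the 4 genes Fos, Jun, Junb and Jund. All 5 belong to the list of 17 stress genes.

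Heat-shock genes rose with them. Hspa1a, the inducible Hsp70 chaperone, had 0 UMIs in the cold members of all 3 libraries and 1901, 543 and 3554 CPM in the warm ones, at least 124-fold higher against a floor of 3 UMIs over the group (adjusted p = 0.00234). The co-chaperone Dnajb1 was 625, 174 and 480.2 against 26.0, 6.55 and 0 CPM, a ratio of 30.2 (9.89 to 150.4) (adjusted p = 0.00373). Dnaja1, of the same family, was 250.1, 319 and 608 against 77.9, 72.0 and 144 CPM (log2 1.91 ± 0.45, adjusted p = 0.0344). Of the study's 17 stress genes 12 passed the filter on low counts, and 10 of these were higher in warm libraries, none lower. Of the 10 that every library counted 8 were higher, with a median log2 of 2.88 against 0.03 over all tested genes. The study picked this list as genes induced in its warm samples, so its direction here is not independent evidence. Of 9 other heat-shock genes 5 were tested and 2 were higher (median 1.24). These medians, and those of the later lists, are over the tested genes that every library compared counted, and genes with 0 to 3 UMIs in a group enter at their bound or ratio.

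Early activation genes of B cells were higher as well. Of 26 early activation genes, none of them in the stress list, 12 were tested and 10 were higher (9 of the 11 that every library counted, median log2 2.17). This list and the other gene lists were chosen with earlier results of these data known. Their directions, here and in the later comparisons, are thus not independent evidence. Nr4a1 (Nur77), a nuclear receptor induced by antigen-receptor signals, was 750.2, 369 and 192 CPM warm and 6.55 and 0 in the 2 cold libraries that counted it, a ratio of 89.1 (15.6 to 3561) on 1 cold UMI (adjusted p = 0.0115 without the library that did not count it). Cd83, a surface marker of activated B cells, was 650.2, 304 and 384 against 52.0, 58.9 and 65.6 CPM (log2 2.74 ± 0.39, adjusted p = 0.00234). Cd69, which holds activated lymphocytes in tissue, was 575, 217 and 448 against 90.9, 118 and 91.8 CPM (log2 1.78 ± 0.42, adjusted p = 0.0344). The stress-recovery phosphatase subunit Ppp1r15a was 525, 268 and 960.5 against 13, 19.6 and 13.1 CPM (log2 4.82 ± 0.65, adjusted p = 0.00187). The ratios of the histone demethylase Kdm6b and of the cyclic AMP response modulator Crem, on 3 and 1 cold UMIs, were 17.0 (5.37 to 86.3) and 51.0 (8.59 to 2070.1). All of these genes had groups that did not overlap.

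Among genes of B-cell identity and traffic, 2 of 9 tested transcription factors and 2 of 5 tested trafficking genes were higher in warm libraries, beside 4.45% of all tested genes. Klf2, a transcription factor of quiescent lymphocytes that steers their homing, was 5251, 2419 and 3489.7 CPM in warm and 1403, 1244 and 1141 in cold libraries (log2 1.47 ± 0.23, adjusted p = 0.00373). Rel, a subunit of NF-kappa-B, was 575, 232 and 416 against 64.9, 78.6 and 39.4 CPM (log2 2.43 ± 0.44, adjusted p = 0.00960). They were the transcription factors that passed, of 22 in the list, and the median of the 9 was 0.09. Ccr7, the receptor that leads lymphocytes to lymph nodes, was 1250.3, 427 and 672 against 234, 137 and 118 CPM (log2 2.15 ± 0.41, adjusted p = 0.0115). Cd69 was the other trafficking gene that passed, of 14 in the list. None of 8 tested MHC class II genes (median 0.03) and none of 10 tested receptor-signalling genes (median -0.21) passed the threshold in either direction, of 10 and 22 in the lists. Of 6 tested immunoglobulin genes Iglc3 passed, as given above, and of 2 tested survival genes Cd83 was higher and Cd52 lower.

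The genes lower in warm libraries were of several kinds. Cd52, a short surface glycoprotein of lymphocytes, was 1550.4, 1224 and 1121 CPM warm and 2130.0, 2409 and 2440.3 cold (log2 -0.91 ± 0.18, adjusted p = 0.0151). The lymphocyte GTPase Gimap1 was 375, 159 and 224 against 584, 596 and 499 CPM (log2 -1.31 ± 0.32, adjusted p = 0.0406). Slfn2, of a family tied to lymphocyte quiescence, had a log2 fold change of -1.50 ± 0.36, Rsrp1 of -1.58 ± 0.38 and Hmha1 of -1.08 ± 0.27 (adjusted p = 0.0344, 0.0382 and 0.0467). The other 3 named were hemoglobin genes, which B cells do not make. Hbb-bs was 750.2, 543 and 1121 CPM warm and 2208, 1289.8 and 3529 cold (log2 -1.66 ± 0.38, adjusted p = 0.0324). The 4 hemoglobin genes together made 0.139 ± 0.0388% of member UMIs warm and 0.475 ± 0.273% cold, and 0.137% and 0.692% of T-cell UMIs. Their part in the lower calls of other genes was not tested. The 12 proximal tubule genes made 0.848 ± 0.618% and 0.736 ± 0.170%, and none of the 6 tested passed.

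Of the 26 named genes called here, Klf2, Cd83, Fos, Junb, Jun, Jund, Nr4a1, Ppp1r15a, Dnajb1, Hspa1a and Fosb were still called when any 1 library was left out, and the other 15 were lost without at least 1. With a replicate block by the code of the column names Cd69 (adjusted p = 0.0616), Rsrp1 (0.0655), Slfn2 (0.0841), Gimap1 (0.0793) and Hmha1 (0.089) were not called. Of these 11, Fos, Nr4a1 and Fosb were not counted in every cold library. Each group is 3 libraries, and a gene with a 2-fold change was found in 36% of cases on simulated counts of this comparison and a 4-fold change in 92%.

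**Figure D3:**
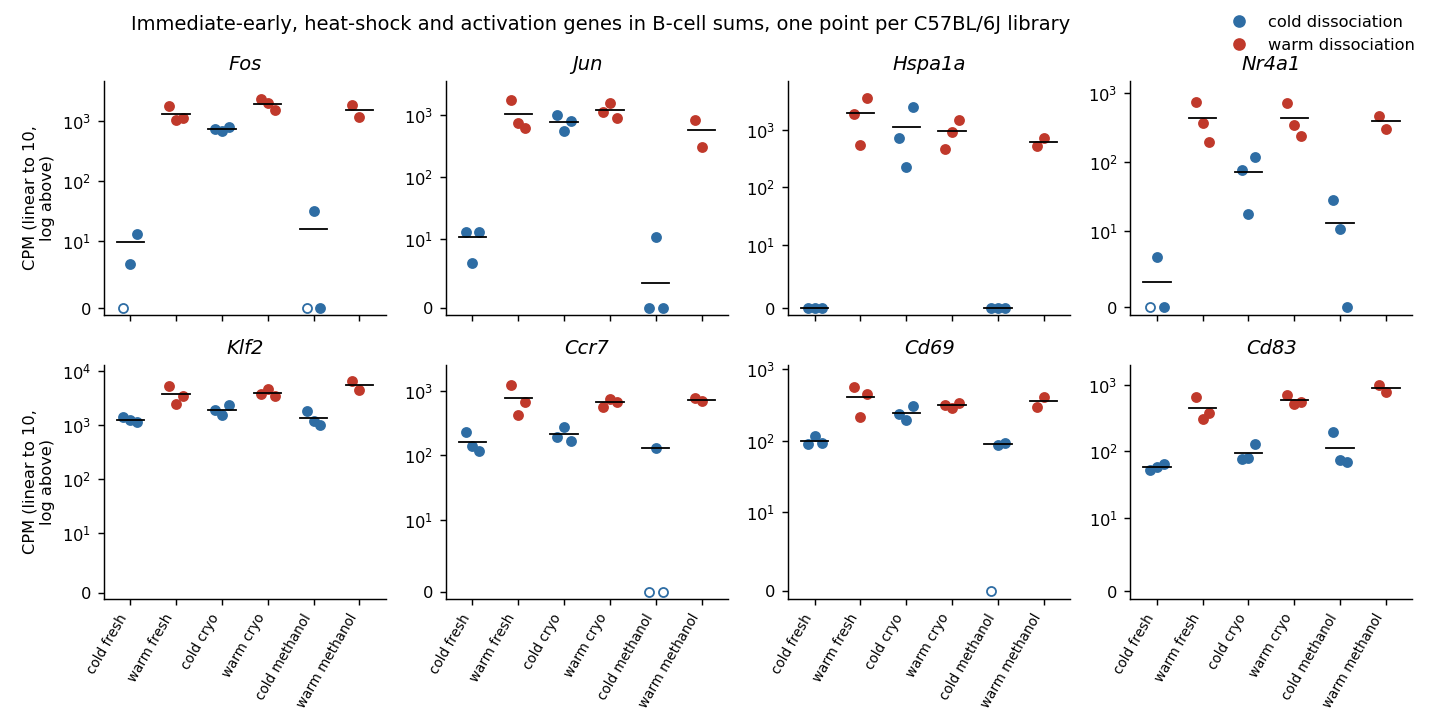
CPM of 8 genes in the member sums of each C57BL/6J library with at least 10 members, linear to 10 CPM and logarithmic above. Each point is a library, bars are group means, blue is cold and red is warm dissociation. Open points are libraries that did not count the gene, and they enter no mean. Fos, Jun, Hspa1a and Nr4a1 lie at 0 to 32.2 CPM in the cold fresh and cold methanol libraries that counted them. Their group means are higher in the cold cryo libraries.

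T-cell barcodes of the same fresh libraries changed as well. Of 1111 genes tested in them 39 were higher and 4 lower in warm libraries. A test of whether the warm effect differed between B-cell and T-cell sums called 0 of 1178 genes higher (0%) and 0 lower (0%) by edgeR, with 42 at an unadjusted p under 0.05, which does not show that the effects are equal.

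The promoters of Fos and Hspa1a, the stress genes with the highest warm ratios or bounds, are shown beside these values. They are the 250 bases before the start site, 5′ to 3′ on the gene's strand, from RefSeq on GRCm38.p6. Capitals mark matches, on either strand, to the cyclic AMP response element core TGACG, the heat-shock element GAANNTTC or the TATA box TATAAA, none of which overlapped here.
Fos: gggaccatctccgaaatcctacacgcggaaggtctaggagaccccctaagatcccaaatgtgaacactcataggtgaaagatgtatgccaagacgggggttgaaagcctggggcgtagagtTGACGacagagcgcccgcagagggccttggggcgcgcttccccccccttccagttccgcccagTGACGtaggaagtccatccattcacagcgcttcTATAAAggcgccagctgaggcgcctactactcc
Hspa1a: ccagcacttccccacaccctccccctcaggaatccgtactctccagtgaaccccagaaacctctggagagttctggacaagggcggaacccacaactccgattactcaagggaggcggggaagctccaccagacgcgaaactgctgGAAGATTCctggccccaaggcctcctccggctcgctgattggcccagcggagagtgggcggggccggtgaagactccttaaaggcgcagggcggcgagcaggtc
They lie at chr12:85473640-85473889 (plus strand) and chr17:34972157-34972406 (minus strand). Fos holds 2 matches to TGACG and 1 to TATAAA, and Hspa1a 1 to GAANNTTC. Of the 17 named genes higher in warm fresh libraries 12 had an entry, and 8 of them held TGACG, 3 GAANNTTC, 1 TATAAA and 0 the octamer ATGCAAAT. Of all 32851 promoters of this length 17.8%, 6.69%, 12.4% and 1.60% held them. A match describes letters and is not a measured binding site. Ccr7, Cd69, Cd83, Crem and Kdm6b were not matched.

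The warm effect was measured again in stored aliquots. After cryopreservation 44 of 806 genes were higher (5.46%) and 13 lower (1.61%) in warm libraries, and after methanol 21 of 538 (3.9%) and 8 (1.49%). Of the 443 genes tested in all 3 storage forms, 12 were called higher in each of them, of which Fos, Nr4a1 and Ccr7 were not counted in 1 or 2 cold libraries of a comparison. Over the 434 genes that every library counted, 9 were called higher in each, namely Cd83, Dusp1, Ier2, Junb, Jund, Klf2, Ppp1r15a, Rgs2 and Stk17b. They made up 52.9% of the genes called higher there in fresh, 42.9% in cryo and 52.9% in methanol libraries. The groups share no library between storage forms, but the suspensions were aliquots of the same kidneys.

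In cryopreserved libraries activation and stress genes were again higher in warm members. Cd83 was 711, 511 and 563 CPM warm and 76.7, 80.5 and 129.7 cold (log2 2.66 ± 0.32, adjusted p = 4.26e-05). Rel was 711, 686 and 772 against 176, 201.3 and 189 CPM (log2 1.95 ± 0.25, adjusted p = 5.60e-05). Ccr7 and Klf2 differed by log2 1.66 ± 0.27 and 1.07 ± 0.16 (adjusted p = 0.000698 and 0.000246). Vps37b, of an endosomal sorting complex, and Plaur, the urokinase receptor, differed by log2 3.33 ± 0.43 and 3.11 ± 0.42 (adjusted p = 5.60e-05 and 8.05e-05). Nr4a1 (log2 2.65 ± 0.50), the kinase Map3k8 (2.25 ± 0.42), Cebpb (2.15 ± 0.42), Nfkbid (1.81 ± 0.36), Ppp1r15a (1.59 ± 0.27) and Klf6 (1.35 ± 0.26) were higher as well. Fos was 2277, 1945 and 1529 CPM warm but also 729, 667 and 778 cold, a log2 fold change of 1.40 ± 0.18 (adjusted p = 5.60e-05). Of the stress list 7 of 12 tested genes were higher (median 0.80 against 0.01 over all tested genes) and of the activation list 7 of 15 (median 1.12).

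Lower in warm cryo libraries, beside Iglc3 and Iglc2, were Cd52 at 961, 1359 and 1368 against 2232, 2842 and 3231 CPM (log2 -1.10 ± 0.17, adjusted p = 0.000472) and Ltb at 356, 287 and 451 against 974, 708 and 826 (log2 -1.18 ± 0.26, adjusted p = 0.00870). Gimap1 (-1.33 ± 0.35), Slfn2 (-1.65 ± 0.43), the antiviral deaminase Apobec3 (-1.33 ± 0.39), Ndufs7 (-1.50 ± 0.42) and Arhgdib (-0.94 ± 0.23) were also lower on the log2 scale. Ets1 (log2 1.09 ± 0.29), Itga4 (1.58 ± 0.42), Fosb (1.27 ± 0.29), Btg1 (0.78 ± 0.15) and Jund (1.16 ± 0.13) were higher. None of 5 tested genes of the other heat-shock list, 9 MHC class II genes and 12 receptor-signalling genes passed the threshold. Hemoglobin genes were too low to be tested there. Of the 27 named genes called between warm and cold cryo libraries 15 were still called when any 1 library was left out, and 13 under every alternative fit. Those lost without at least 1 were Iglc3, Iglc2, Ets1, Ltb, Itga4, Fosb, Cebpb, Slfn2, Ndufs7, Apobec3, Gimap1 and Arhgdib.

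In methanol-fixed libraries, with 2 warm libraries of 19 and 33 members, 8 of 10 tested stress genes and 5 of 8 tested early activation genes were higher in warm members. Junb was 5585 and 3300.3 CPM warm and 82.9, 193 and 69.6 cold (log2 4.86 ± 0.35, adjusted p = 2.17e-08). Fos was 1822 and 1137 CPM warm and 32.2 and 0 in the 2 cold libraries that counted it, a ratio of 53.5 (17.6 to 265) (adjusted p = 0.00236 in the fit of the libraries that counted it). Hspa1a was 529 and 721 CPM warm and 0 in the 3 cold libraries, at least 33.8-fold higher. Klf2 was 6467 and 4409.7 against 1824, 1171 and 1020.4 CPM (log2 1.90 ± 0.24, adjusted p = 4.45e-05) and Cd83 999 and 777 against 193, 75.2 and 69.6 (log2 2.91 ± 0.46, adjusted p = 0.000289). Jund (2.74 ± 0.26) and Dnajb1 (3.65 ± 0.78) were higher on the log2 scale. Ccr7 stood at 764 and 693 CPM warm and 129 in the 1 cold library that counted it, which gives no test. On 1 to 3 cold UMIs each, the ratio of Jun was 72.5 (11.9 to 2978), that of Dusp1 47.9 (12.2 to 412), that of Ppp1r15a 40.6 (13 to 205), that of Rgs2 30.0 (9.35 to 153) and that of Nr4a1 27.6 (6.65 to 244). The median log2 was 2.74 in the stress list and 3.85 in the activation list, against -0.06 over all tested genes.

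Lower in warm methanol libraries were Ltb (log2 -1.76 ± 0.42, adjusted p = 0.0123), the 4 hemoglobin genes, the tubule gene Gpx3 (log2 -1.24 ± 0.32, not called with the replicate block, adjusted p = 0.175) and Spink1 (-1.09 ± 0.30). Hbb-bs was 4468 and 1914 CPM warm and 8844, 12094 and 23469 cold (log2 -2.42 ± 0.45, adjusted p = 0.00149), and Hba-a2, Hba-a1 and Hbb-bt differed by log2 -3.04 ± 0.44, -2.84 ± 0.48 and -2.42 ± 0.50. Hemoglobin UMIs were 0.598 ± 0.327% of member UMIs warm and 3.20 ± 1.76% cold. Their part in the calls of other genes was not tested. Of the 21 named genes called here 10 were still called in every fit without 1 library that tested them. Klf2, Cd83, Junb, Fos, Jund and Ppp1r15a were tested in 5 such fits, Hspa1a, Rgs2 and Jun in 4 and Nr4a1 in 3.

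Whether the warm effect differed between storage forms was tested directly. Cryopreserved against fresh libraries, 0 of 1499 genes had a higher (0%) and 9 a lower warm effect (0.6%). The 9 were Fos, Fosb, Jun, Junb, Jund, Hspa1a, Dnajb1, Ppp1r15a and Sdha, a mitochondrial enzyme subunit. Fos and Fosb were not counted in 2 and 6 of the C57BL/6J libraries tested, and the other 7 were called in the fit without such genes too. For Jun the difference of the 2 log2 effects was -5.75 ± 0.67 (SE, adjusted p = 8.37e-06) and for Jund -1.46 ± 0.29 (adjusted p = 0.0101). Methanol against fresh libraries, 0 of 1499 genes had a higher (0%) or a lower effect (0%) by edgeR, with 95 at an unadjusted p under 0.05.

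**Figure D4:**
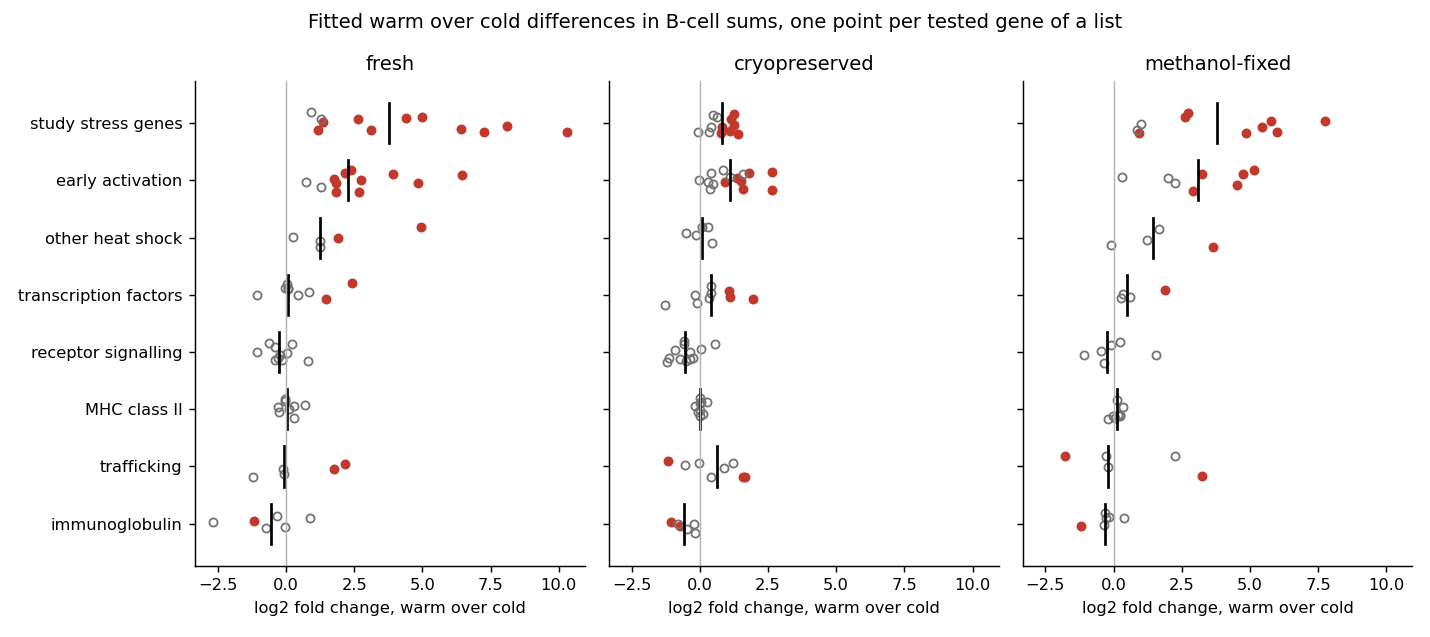
Fitted log2 fold changes, warm over cold, of the tested genes of 8 lists in fresh, cryopreserved and methanol-fixed libraries. Each point is a gene, red where the adjusted p is under 0.05 and open grey otherwise, and black bars are list medians. Points of genes at 0 UMIs in a group depend on the fit and are no bounds. The stress and early activation lists lie to the right, less so in the cryopreserved libraries, and MHC class II lies at 0.

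Cold cryo members had more RNA of stress genes than cold fresh ones, a comparison that shares the cold fresh libraries with the one of fresh warm and cold members. Of 1063 genes 103 were higher (9.69%) and 132 lower (12.4%) in cold cryo than in cold fresh members. Fos was 729, 667 and 778 CPM cryo, against the cold fresh values given above, a ratio of 71.6 (19.6 to 594) to the 2 cold fresh libraries that counted it (adjusted p = 1.12e-08 in the fit of those libraries). Jun was 989.5, 558 and 790.1 CPM, a ratio of 70.1 (23.8 to 342). Hspa1a was 721, 230.1 and 2477 CPM, at least 82.3-fold higher. Fosb was 329.8, 282 and 177 CPM and was not counted in the cold fresh libraries. Junb was 1688, 955 and 1191 CPM (log2 3.46 ± 0.32, adjusted p = 1.46e-06) and Jund 2163, 2099.8 and 2123 (log2 1.74 ± 0.20, adjusted p = 1.23e-05). Of the stress list 10 of 12 tested genes were higher and none lower, and 8 of the 10 that every library counted, with a median of 1.66 against -0.10 over all. Of the activation list 8 of 10 were higher (median 1.61), and of the other heat-shock list 4 of 5.

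The heat-shock and activation genes of cold cryo members included Dnajb1 at 560.0, 322 and 1309 CPM, a ratio of 57.4 (19.4 to 280.4), and the cytosolic chaperone Hsp90aa1 at 974, 639 and 1226 against 195, 157 and 118 CPM (log2 2.44 ± 0.29, adjusted p = 1.61e-05). Hspa5 (BiP), the chaperone of the endoplasmic reticulum, was 329.8, 328 and 295 against 143, 124 and 131 CPM (log2 1.14 ± 0.26, adjusted p = 0.00532), and Dnaja1 differed by log2 1.13 ± 0.38. Zfp36, which speeds the decay of cytokine mRNAs, differed by 2.60 ± 0.37, Ppp1r15a by 3.67 ± 0.47, Klf4 by 3.37 ± 0.59, Gadd45b by 2.41 ± 0.45 and the phosphatase gene Dusp1 by 3.65 ± 0.51. Rel (1.41 ± 0.35) was the 1 of 14 tested transcription factors that passed, and Cd69 (1.07 ± 0.31) the 1 of 9 tested trafficking genes. None of 15 receptor-signalling, 9 MHC class II and 5 survival genes tested passed. Of 6 immunoglobulin genes Iglc1 was lower, at 798, 495 and 554 against 1740.3, 1257 and 945 CPM (log2 -1.20 ± 0.23, adjusted p = 0.00161). Without the member with most Iglc1 UMIs of each library the levels were 719, 440.0 and 407 CPM cryo and 661, 1042 and 649 fresh, which overlap. Iglc2 (0.42 ± 0.16), Igkc (-0.13 ± 0.18) and Iglc3 (-0.09 ± 0.16) missed the threshold (adjusted p = 0.0703, 0.679 and 0.738). With the replicate block Iglc2 was called higher (adjusted p = 0.0333). Plac8 was the 1 tested gene of the monocyte and neutrophil list, and it was higher in cold cryo members (log2 0.89 ± 0.30, adjusted p = 0.0417).

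Among the genes that fell in cold cryo members were those of other kidney cells. Slc34a1, the phosphate transporter of the proximal tubule, was 416, 373 and 341 CPM in cold fresh members and 0 in the 3 cold cryo libraries, at least 53.4-fold lower. The secreted tubule protein gene Gpx3 fell from 5702, 2377 and 4749 to 161, 86.3 and 200.5 CPM (log2 -5.02 ± 0.32, adjusted p = 7.45e-08). Kap and Ass1 differed by log2 -4.04 ± 0.32 and -4.97 ± 0.38. The metabolic tubule genes Acsm2 (in the 2 cryo libraries that counted it), Fbp1 and Akr1c21 and the peptide gene Guca2b were 64.4, 72.4, 43.2 and 46.0 times higher in fresh members, on 1 to 3 cryo UMIs (lower bounds of the intervals 11.2, 12.4, 14.3 and 12.2). Hbb-bs fell from 2208, 1289.8 and 3529 to 28.8 and 35.4 CPM in the second and the third cryo replicates, as the first counted neither it nor Hba-a2. Without that library the log2 fold change was -6.30 for Hbb-bs (adjusted p = 5.56e-05) and -5.50 for Hba-a2 (adjusted p = 0.00102). Hba-a1, counted in all, differed by log2 -5.63 ± 0.68. All 5 tested tubule genes and all 3 tested hemoglobin genes were lower. Tubule UMIs were 0.0290 ± 0.00824% of member UMIs cryo and 0.736 ± 0.170% fresh, and 0.0368% and 0.547% in T-cell barcodes. Of the 29 named genes called between cold cryo and cold fresh members 27 were still called when any 1 library was left out, and Cd69 and Dnaja1 were not.

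**Figure D5:**
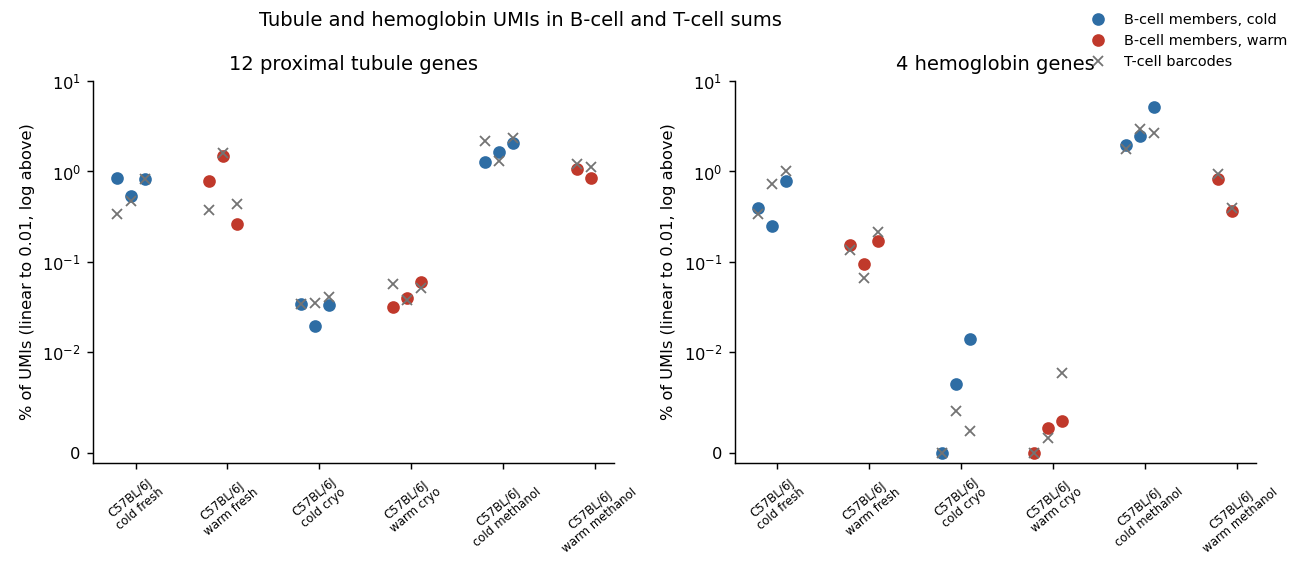
UMIs of 12 proximal tubule genes (left) and 4 hemoglobin genes (right), in percent of all UMIs, linear to 0.01 and logarithmic above. Dots are the member sums and crosses the T-cell sums of the C57BL/6J libraries with at least 10 members, blue for cold and red for warm dissociation. Both sets are low in cryo libraries and high in cold methanol ones. The first cold cryo library did not count 2 of the 4 hemoglobin genes.

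Between warm cryo and warm fresh members the stress genes did not pass the test. Of 522 genes 11 were higher (2.11%) and 28 lower (5.36%) after cryopreservation, 39 in all against 61 with the replicate block. None of 12 stress and 14 activation genes tested was called. With the 8 tested genes not counted in a library left out, 12 genes were called higher and 43 lower, and Klf6 became the 1 activation gene called, as higher. The lists had medians of 0.09 and 0.30 against -0.03 over all, which does not show that they were equal. Both tested proximal tubule genes of the list of 12 and the 1 tested hemoglobin gene were among the 28 lower. Kap went from 3176, 6411 and 928 to 107, 74.8 and 161 CPM (log2 -5.18 ± 0.72, adjusted p = 0.00406) and Gpx3 from 2476, 4209 and 1313 to 178, 237 and 370.1 (log2 -3.50 ± 0.46, adjusted p = 0.00406). On 1 cryo UMI, the ratio of fresh to cryo was 131 (23.1 to 5209.5) for Hbb-bs. The sodium-pump subunit Fxyd2 (-3.44 ± 0.49), Cd63 (-3.89 ± 0.56), Cyb5a (-3.08 ± 0.62) and Akr1a1 (-2.93 ± 0.69) fell on the log2 scale. Higher after cryopreservation were Atf4, the transcription factor of the integrated stress response, at 534, 449 and 402 against 150.0, 101.4 and 96.0 CPM (log2 1.81 ± 0.33, adjusted p = 0.0117), the mitochondrial gene mt-Atp8 (1.04 ± 0.22), Zfos1 (1.43 ± 0.36), the pseudogene Rps26-ps1 (1.80 ± 0.34) and 4 predicted genes. These 4, Gm10116, Gm10076, Gm10073 and Gm11808, differed by log2 2.30 ± 0.43, 1.90 ± 0.29, 1.31 ± 0.34 and 1.16 ± 0.28, and near-identical copies make predicted genes and pseudogenes uncertain in 3′ counts. Of 6 immunoglobulin genes tested none passed, and Iglc2, Ighm and Igkc differed by log2 -1.37 ± 0.65, -0.23 ± 0.19 and -0.08 ± 0.16 (adjusted p = 0.178, 0.437 and 0.786). Without the second warm fresh replicate, where 1 member held most Iglc2 UMIs, the Iglc2 difference turned to log2 0.34. Of the 16 named genes called, Gpx3, Kap, Hbb-bs, Gm10076, Cd63 and Fxyd2 were still called when any 1 library was left out, and the other 10 were lost without at least 1.

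Cold methanol members had less Malat1 RNA, less mRNA of 4 of 7 tested transcription factors and more hemoglobin RNA than cold fresh ones. Of 856 genes 74 were higher (8.64%) and 99 lower (11.6%) than in cold fresh members. Malat1, a long non-coding RNA kept in the nucleus, was 11552, 8894 and 11108 CPM in methanol and 46717, 42702 and 47377 in fresh libraries (log2 -2.37 ± 0.24, adjusted p = 0.000150). The groups did not overlap. Foxp1, a transcription factor of B-cell development, was 55.3, 43.0 and 92.8 against 442, 386 and 223 CPM (log2 -2.78 ± 0.42, adjusted p = 0.00209). Ets1, Pou2f2 (Oct2) and Mef2c differed by log2 -2.08 ± 0.40, -2.0 ± 0.41 and -1.13 ± 0.27 (adjusted p = 0.00511, 0.00726 and 0.0144). The 7 had a median of -1.13 against 0.07 over all tested genes. The tetraspanin Cd37 (-0.87 ± 0.23) and the adaptor Bank1 (-1.08 without the methanol library that did not count it) were 2 of 10 tested receptor-signalling genes, and Btg1 (-1.69 ± 0.31), Btg2 (-1.37 ± 0.45) and Hsp90ab1 (-1.38 ± 0.29) 3 of 5 tested stress genes, all lower. The scaffold Iqgap1 (-2.46 ± 0.44), the splicing gene Sf3b2 (-2.27 ± 0.50) and Gm2000 (-2.15 ± 0.31) were lower too. Gm43603 and the lymphocyte GTPase Rhoh were called lower but were counted in only 1 of the methanol libraries, so no fold is given.

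None of 6 immunoglobulin, 8 MHC class II, 3 trafficking and 3 activation genes tested passed between cold methanol and cold fresh members. Igkc was 12271, 7057 and 7305 CPM in methanol and 11650.0, 13533 and 8134 in fresh libraries (log2 -0.61 ± 0.24, adjusted p = 0.0892). Without the member that held 767 of 2067 Igkc UMIs the second fresh replicate was at 8759 CPM. Ighm (-0.48 ± 0.18), Iglc3 (0.45 ± 0.18) and Iglc2 (0.34 ± 0.18) also missed the threshold (adjusted p = 0.0743, 0.0907 and 0.190). With the replicate block Igkc (log2 -0.59, adjusted p = 0.0117) and Ighm (-0.48, adjusted p = 0.0339) were called lower. Hemoglobin genes rose, Hbb-bs from 2208, 1289.8 and 3529 to 8844, 12094 and 23469 CPM (log2 2.45 ± 0.41, adjusted p = 0.00363). Hbb-bt, Hba-a1 and Hba-a2 differed by log2 3.44 ± 0.47, 2.63 ± 0.49 and 2.49 ± 0.46. Together hemoglobin made 3.20 ± 1.76% of member UMIs in methanol, against 0.475 ± 0.273% fresh. The tubule genes Gpx3 (1.17 ± 0.31), Kap (0.89 ± 0.20), Khk (1.60 ± 0.35) and Glyat (1.61 ± 0.46) were higher, and tubule UMIs made 1.66 ± 0.381% against 0.736 ± 0.170%. AY036118, a transcript from a ribosomal RNA repeat region, was 304, 505 and 603 against 39, 6.55 and 13.1 CPM (log2 4.51 ± 0.53, adjusted p = 0.000313), and Trappc1 differed by 1.94 ± 0.58. The part of the added blood and tubule RNA in the lower genes was not tested. Of the 25 named genes called between cold methanol and cold fresh members, 11 were still called when any 1 library was left out. They were Malat1, Foxp1, Btg1, Iqgap1, Gm2000, AY036118, the 4 hemoglobin genes and Gm43603, which 2 methanol libraries did not count. Ets1, Pou2f2, Mef2c, Cd37, Bank1 and the tubule genes were among the other 14.

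Between warm methanol and warm fresh members, with 2 methanol libraries, 2 of 497 genes were higher (0.402%) and 2 lower (0.402%), with 61 at an unadjusted p under 0.05. Malat1 was 10523 and 17139.5 CPM in methanol and 49264, 48591 and 57916 fresh (log2 -2.09 ± 0.35, adjusted p = 0.0397). The antiproliferative gene Btg1 was 529 and 666 against 2951, 1514 and 2465 CPM (log2 -2.07 ± 0.30, adjusted p = 0.0293). AY036118 (5.56 ± 0.66) and Gm10076 (1.85 ± 0.29) were higher. None of the 4 stayed called when each library was left out in turn. With the replicate block 11 genes were called in place of 4, and Malat1 was not (adjusted p = 0.0783). Iglc3, Igkc and Iglc2 differed by log2 0.59 ± 0.37, -0.30 ± 0.21 and -0.78 ± 0.82, with adjusted p of 0.570 to 0.735. Without the second warm fresh replicate the Iglc2 difference turned to log2 0.91.

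Between cold fresh C57BL/6J and male Balb/c members, with 2 Balb/c libraries of 37 and 35 members, 22 of 1179 genes were higher (1.87%) and 11 lower (0.933%) in C57BL/6J. Ltb, a cytokine gene that shapes lymphoid tissue, was 974, 1152 and 695 CPM in C57BL/6J and 4249 and 4019.8 in Balb/c (log2 -1.45 ± 0.24, adjusted p = 0.00442). Iglc2 was 1494, 1624 and 1469 against 5788 and 4811 CPM (log2 -1.12 ± 0.20, adjusted p = 0.00596). Ighm was 2636, 1945 and 1745 against 1758 and 1449.8 CPM, which overlap, yet passed after scaling (log2 1.04 ± 0.23, adjusted p = 0.0275). Iglc3 missed the threshold (log2 -0.32 ± 0.21, adjusted p = 0.611). Siglecg and Fcrla were called higher but were not counted in the Balb/c libraries, which gives no fold. Gm2000, Apobec3, Wdr89, Tmem27 and Tcf25 were counted there but had 0 UMIs in the Balb/c members, with folds, after the same scaling, of at least 7.03, 5.32, 5.12, 3.31 and 2.66, and S100g had a ratio of 27.4 (4.86 to 1088).

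Higher in male Balb/c members were Gm10709, at least 68.6-fold, Gm10260, with a ratio of 262 (70.3 to 2204), and Tpm3-rs7, with 28.8 (7.91 to 157). Erdr1, Aldh7a1, Gm8730 and Apoe, an apolipoprotein gene, differed by log2 -3.24 ± 0.59, -2.80 ± 0.60, -1.78 ± 0.32 and -1.54 ± 0.35. None of 6 stress and 5 activation genes tested passed, with medians of -0.07 and -0.34 against 0.06 over all. Of the 18 named genes called, Gm2000, Gm10709, Gm10260 and Tpm3-rs7 were still called in every fit without 1 library that tested them. There were 5 such fits for Gm2000 and Gm10260, 4 for Gm10709 and 2 for Tpm3-rs7. The male Balb/c libraries list no mitochondrial genes, which made 23.9 ± 8.03% of member UMIs in the cold fresh C57BL/6J libraries (SD, n = 3), so CPM and depths have unlike denominators in the strains. Member medians were 1260.2 ± 340.3 UMIs in C57BL/6J and 341 ± 22.9 in male Balb/c libraries, and a 4-fold change was found in 42% of cases on simulated counts of this comparison. Female Balb/c fresh libraries, with at most 8 members, were too few for a test of gene levels.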

How the data were processed

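Single-cell RNA sequencing (10x Genomics 3′ kits) of 27 mouse kidney cell libraries was used, with 12 nucleus libraries for the shares alone. The 15 bulk libraries were not used here. The deposited values are UMI counts per gene and barcode. Per the study's methods and the submitters' processing notes, the authors aligned reads with Cell Ranger 2.1.1 to GRCm38 (mm10), took reads in exons for cell libraries and also those in introns for nuclei, called cells with EmptyDrops and filtered genes and barcodes on detection, gene number and mitochondrial share. The counts were not normalized. A gene was kept in a library where at least 10 of its cells held it, so a gene listed at 0 in every barcode was taken as not counted there, from these methods and the values. In the C57BL/6J libraries 6 to 852 genes were found in only 1 to 9 barcodes, so the deposited tables do not follow that rule exactly.

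Members and gene lists were chosen with earlier results of these data known. Members' UMIs were summed per library and tested with edgeR 4.0.16 (TMM, filterByExpr, quasi-likelihood test, Benjamini-Hochberg adjustment over all tested genes, threshold 0.05) between the groups compared, in libraries with at least 10 members, leaving out the 7 genes of the rule. DESeq2 1.42.0 was an alternative. CPM are UMIs scaled to 1000000 member UMIs and fold changes are log2. The SE of a fold change was derived from the test, as its absolute log2 value over the square root of the F statistic. Bounds and ratios of genes with 0 to 3 UMIs in a group use library sizes multiplied by the TMM factors. T-cell barcodes had at least 2 of 5 T-cell genes and proximal tubule barcodes at least 3 of 7 tubule genes. Neither set had a UMI of Cd79a, Cd79b, Ms4a1, C1qa or Pecam1, and the tubule set had none of Cd3e. Shares were compared by two-sided exact permutation tests over libraries, which 3 against 3 or 2 against 3 cannot bring below 0.1. Libraries are separate animals per group. Stored libraries came from aliquots of the same suspensions as fresh ones, a pairing that the permutation tests and the main fits did not use. Warm and cold libraries can come from the same animals.

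Named genes were up to 4 of each list with the smallest p, up to 8 called per direction with the largest change and no overlap, and 20 leading genes, of which some are not reported here. After values were seen, list members that missed the threshold were left out, except immunoglobulin genes. The scripts were tested on simulated data. Column names hold codes that may mark animals, which no source states, although stored aliquots came from the same suspensions. The correlation of same-code deviations lay between -0.101 and 0.208 and exceeded 0.1 in all pairs of no comparison. The main fits have no block, and the fit with the code as a replicate block is given where it changed a call or a count by over 1.5 times. Intervals, floors and counts of UMIs cover counting error and leave out variation between animals. Python 3.11.15, scipy 1.17.1 and R 4.3.3 were used.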

Additional observations from a re-analysis of the deposited data

Results flagged for a closer look

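In 9 genes the effect of warm dissociation on member sums was lower after cryopreservation than in fresh libraries, by a test of the difference itself with edgeR (log2 difference of the effects, with SE and adjusted p). They were Hspa1a at -10.27 (1.73, 0.00334), Fosb at -6.73 (0.91, 0.00021), Fos at -5.81 (0.58, 1.43e-06), Jun at -5.75 (0.67, 8.37e-06), Dnajb1 at -5.48 (1.16, 0.0168), Sdha at -4.65 (0.94, 0.0124), Junb at -4.16 (0.47, 7.75e-06), Ppp1r15a at -3.22 (0.68, 0.0168) and Jund at -1.46 (0.29, 0.0101). The values of Hspa1a and Fosb are fitted with 0 in the cold fresh group and depend on the prior count. Fosb was not counted in the cold fresh libraries and Fos not in the first of them, and without such genes the other 7 were called and none in the opposite direction. In cold cryo members Fos stood at 729, 667 and 778 CPM and in the 2 cold fresh libraries that counted it at 6.55 and 13.1.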

How the results depend on the processing

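Values differ from the report as follows, and the cause was not tested unless named. Differences in member share, in percentage points, changed size under another rule for members. With at least 3 of 4 rule genes they were 6.12 for cold cryo against cold fresh, 1.60 for warm cryo against warm fresh and -0.0244 for female nuclei against cells. With barcodes thinned to 500 UMIs they were 0.597 for female cryo against fresh, -0.251 for male nuclei and -0.0165 for female nuclei. Thinned to 1000 UMIs they were 5.49 for cold cryo against cold fresh and 2.00 for warm cryo against warm fresh. They were -0.897 for warm methanol against warm fresh, where the third methanol replicate enters as 0. They were also 2.18 for C57BL/6J against male Balb/c and -0.0383 for male nuclei. Over barcodes that did not meet the proximal tubule rule they were 2.07 for C57BL/6J against male Balb/c and -0.0991 for female nuclei. With the rule genes common to all libraries compared they were -0.0272 for female nuclei. Tubule UMIs in members, as a difference in percent of UMIs, were -0.582 for cold cryo with thinning to 500 UMIs and -0.467 with 3 of 4 rule genes, -0.399 for warm against cold methanol with doublets removed, -0.435 for female cryo with 3 of 4 rule genes and -1.05 for the strains with thinning, and hemoglobin for female cryo was 0 with thinning. Kappa-only differences asking 2 UMIs were 25.2 for warm cryo against warm fresh, -5.35 for cold methanol, 8.27 for warm methanol against warm fresh, 35.9 for warm against cold cryo and 23.1 for warm against cold methanol, and with 3 of 4 rule genes -5.42 for warm cryo against warm fresh and 12.6 for warm against cold cryo.

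Counts of called genes with no filter on low counts were 69 for warm against cold fresh (44 in the report), 123 for warm cryo against warm fresh (39), 115 for cold methanol (173), 15 for warm methanol against warm fresh (4), 89 for the strains (33), 6 for B against T cells (0), and 19 and 2 for the differences of the warm effect in cryo (9) and methanol (0). More genes enter the adjustment there. All C57BL/6J groups in 1 fit gave 73 for warm against cold fresh, 208 for warm cryo against warm fresh and 31 for warm against cold cryo (57). DESeq2 gave 81 for cold methanol, 8 for warm methanol and 19 for the strains. A log2 change of at least 1 left 144 of 235 for cold cryo and 96 for cold methanol. At least 3 of 4 rule genes gave 5 for warm cryo against warm fresh and 35 for warm against cold cryo, members without Ly6d 10 for warm cryo against warm fresh and 19 for warm against cold methanol (29), and removing doublets 15 for warm cryo against warm fresh. Leaving out 1 library gave 22 to 52 for warm against cold fresh, 170 to 250 for cold cryo, 10 to 135 for warm cryo against warm fresh, 44 to 179 for cold methanol, 0 to 5 for warm methanol, 29 to 64 for warm against cold cryo, 10 to 28 for warm against cold methanol, 8 to 39 for the strains, 0 to 1 for B against T cells, 5 to 11 for the cryo difference and 0 to 0 for the methanol one. Without the first warm, the first cold, the second cold or the third cold replicate the fresh warm count was 29, 28, 22 and 25. For warm cryo against warm fresh it was 10 and 21 without the second and the third cryo replicate and 135 and 14 without the first and the second fresh one. For cold methanol it was 44 and 66 without the second and the third methanol replicate and 44 without the second fresh one. For warm methanol against warm fresh it was 0 without either methanol replicate or the first fresh one and 2 without the second fresh one. For warm against cold cryo it was 29 and 36 without the first and the third warm replicate and 37 without the second or the third cold one. It was 10 for warm against cold methanol without the second warm replicate, 10 and 8 for the strains without the first and the second Balb/c replicate, 1 for B against T cells without the second cold or the third warm replicate, and 5 for the cryo difference without the first warm fresh or the second warm cryo replicate. Leaving out genes not counted in a library moved the total count by at most 1.5 times in the 8 comparisons of member sums, and for warm cryo against warm fresh from 39 to 55, with 43 lower in place of 28. Without the scaling factors, bounds and ratios moved by more than 1.5 times between strains alone, to a ratio of 419 for Gm10260 and at least 4.4-fold for Gm2000. Fits of genes that 1 library did not count, and these bounds, were added after seeing the data. With a replicate block by the animal code of the column names the counts were 37, 251, 61, 236, 11, 82 and 37 for the 7 C57BL/6J comparisons in the order of the preceding ranges. Of these counts 61 (39 in the report) and 11 (4) differed from the report by more than 1.5 times. The block changed the call of 10 named genes, each given in the report, and of no other named gene. No source states what the codes mark, and stored aliquots came from the same suspensions as fresh ones.

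Immunoglobulin genes that missed the threshold changed sign. With no filter the log2 difference was 0.10 for Igkc and 0.14 for Iglc3 in cold cryo, 0.0312 for Ighm and 0.18 for Igkc in warm cryo against warm fresh, and 0.19 for Iglc3 between strains. Leaving out 1 library, Iglc2 ranged from -0.76 to 1.23 between warm and cold fresh, from -1.78 to 0.34 between warm cryo and warm fresh and from -1.19 to 0.91 between warm methanol and warm fresh, Igkc from -0.18 to 0.13 in cold cryo and from -0.17 to 0.0778 in warm cryo against warm fresh, Iglc3 from -0.148 to 0.057 in cold cryo, Iglc1 from -6.36 to 3.06 in warm methanol against warm fresh and Ighm from -0.0126 to 0.729 between warm and cold methanol. The second warm fresh replicate decided the sign of Iglc2 in its 3 comparisons. Groups of 2 or 3 libraries and 15 to 157 members per library limit what gene counts can show.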
